A study of Mus musculus with 9 samples.

Results

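The enzymes that write, copy and erase cytosine methylation and the core of Polycomb repressive complex 2 (PRC2) were followed across macrophage lines of 3 origins. The 10 genes, *Dnmt1*, *Dnmt3a*, *Dnmt3b*, *Uhrf1*, *Tet1*, *Tet2*, *Tet3*, *Ezh1*, *Ezh2* and *Suz12*, were chosen by name from the 24411 gene symbols of the RNA-seq table, and all 10 were found. The lines had been grown from C57BL/6 mice, with the yolk sac taken at E9.5 (YS lines), the fetal liver at E14.5 (FL lines) and the bone marrow from adults (BM lines), with 3 lines per group and 1 library per line. All were unmodified bulk cultures kept with 100 ng/mL recombinant human M-CSF, the growth factor of macrophages. Each line came from its own dish or well and from cells pooled over more than 1 animal, and it is not stated whether the lines of a group came from separate pools, so that p-values measure only the spread between these cultures. Values are TPM, the share of a gene among all transcripts of a library, which is corrected for transcript length and can be compared between genes. TPM holds no read depth, so the only error given is the spread among lines.

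Cytosine methylation in mammals sits mainly on CpG dinucleotides. DNMT3A and DNMT3B place it on unmethylated DNA, whereas DNMT1, brought to newly replicated DNA by UHRF1, copies it to the daughter strand at each cell division. TET1, TET2 and TET3 oxidise methylcytosine, which opens the way to its loss. PRC2 methylates histone H3 at K27 (H3K27) through either of its catalytic subunits, EZH1 or EZH2, and needs SUZ12 as a scaffold. In the blood system DNMT3A, TET2 and EZH2 are known as regulators of stem cell self-renewal and as genes mutated in myeloid disease, and EZH2, DNMT1 and UHRF1 are known as genes of dividing cells.

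Since several of the genes are known for expression in dividing cells, their promoters were searched for the letters bound by E2F factors, which drive genes of the G1 to S transition. RefSeq promoters on build GRCm38.p6 (250 bases before the start and 50 from it on) were held for all 10 members, 15 promoters in all. The letters TTTCCCGC, TTTCGCGC, TTTGCCGC or TTTGGCGC, on either strand, were found in 1 promoter each of *Dnmt1*, *Uhrf1*, *Ezh2* and *Suz12*. They were found in 2.26% of all 32851 promoters of this length, and in 5.15% of the 8701 promoters with at least 20 CpG. The 4 promoters with a match are shown, the match in capitals, with that of *Tet3* as a member that held none. All read 5′ to 3′ along the gene.
Dnmt1: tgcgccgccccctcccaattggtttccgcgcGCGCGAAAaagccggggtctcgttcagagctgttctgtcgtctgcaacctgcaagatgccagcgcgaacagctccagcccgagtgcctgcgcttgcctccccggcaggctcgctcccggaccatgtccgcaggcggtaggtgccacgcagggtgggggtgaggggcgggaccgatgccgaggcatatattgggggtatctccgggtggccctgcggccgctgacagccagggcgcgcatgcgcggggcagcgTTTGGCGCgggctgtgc
Uhrf1: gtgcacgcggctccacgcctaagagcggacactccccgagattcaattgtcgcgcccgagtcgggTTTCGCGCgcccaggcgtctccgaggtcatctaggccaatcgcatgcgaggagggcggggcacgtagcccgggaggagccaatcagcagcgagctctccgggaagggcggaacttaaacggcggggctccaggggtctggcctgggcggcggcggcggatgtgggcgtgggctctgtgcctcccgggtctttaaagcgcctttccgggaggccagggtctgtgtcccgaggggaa
Ezh2: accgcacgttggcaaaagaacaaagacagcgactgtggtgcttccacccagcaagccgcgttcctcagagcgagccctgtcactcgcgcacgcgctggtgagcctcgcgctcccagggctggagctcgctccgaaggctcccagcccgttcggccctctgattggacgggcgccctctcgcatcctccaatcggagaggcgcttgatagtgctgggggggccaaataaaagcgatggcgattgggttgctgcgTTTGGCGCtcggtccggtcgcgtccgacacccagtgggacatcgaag
Suz12: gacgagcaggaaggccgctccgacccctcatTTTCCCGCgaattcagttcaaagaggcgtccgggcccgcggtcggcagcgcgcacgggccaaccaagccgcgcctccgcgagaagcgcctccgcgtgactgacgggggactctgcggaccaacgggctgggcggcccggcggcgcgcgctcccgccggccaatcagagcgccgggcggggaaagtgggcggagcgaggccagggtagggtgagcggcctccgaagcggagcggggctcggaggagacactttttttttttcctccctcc
Tet3: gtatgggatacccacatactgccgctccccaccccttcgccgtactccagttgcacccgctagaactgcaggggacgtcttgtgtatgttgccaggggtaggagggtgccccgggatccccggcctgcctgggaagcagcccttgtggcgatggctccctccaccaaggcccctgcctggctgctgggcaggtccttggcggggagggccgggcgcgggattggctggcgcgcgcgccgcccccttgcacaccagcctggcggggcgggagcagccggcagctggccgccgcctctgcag
The *Dnmt1* window (chr9:20952574-20952873, minus strand, 1 of 3 starts listed) held 2 matches, beginning at -219 and at 34, counted from 1 at the start site. The *Uhrf1* window (chr17:56304063-56304362, plus strand, 1 of 2 starts) held 1 at -185, the *Ezh2* window (chr6:47594981-47595280, minus strand) held 1 at 4 and the *Suz12* window (chr11:79992856-79993155, plus strand) held 1 at -219. The *Tet3* window lies at chr6:83441629-83441928 on the minus strand. These 5 windows were rich in CpG, with 33 in *Dnmt1*, 33 in *Uhrf1*, 31 in *Ezh2*, 41 in *Suz12* and 22 in *Tet3*, against a median of 7 over all promoters. The richest member promoter was that of *Tet2*, with 57 CpG, more than 99.8% of all promoters. Of the other motifs searched on both strands, CCAAT was found in 5 members and in 37.4% of all promoters, and GGGCGG in 8 members and in 35.7% of all promoters. A member was counted if any of its starts held the letters, whereas the shares are per promoter and not matched for CpG. The counts and shares can therefore not be compared directly. A match describes the letters of the window, and which start sites were used in these lines was not measured.

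All 9 libraries had the profile of macrophages. Each of 10 macrophage markers was at 1 TPM or more in every library, *Csf1r* between 1086 and 2441 TPM. Some marker levels differed widely between lines. *Fcgr1* was at 5.47, 42.10 and 1.68 TPM among BM lines and at 110 to 330 TPM in the YS and FL lines. *Lyz2* ran from 1163 to 21976 TPM. YS line 1 held the lowest *Csf1r* (1086 TPM), *Cd68* (1018 TPM) and *Lyz2* (1163 TPM) of all lines. The 7 fibroblast markers summed to at most 1.27 TPM, the 7 mast cell markers to at most 1.33 TPM and the 7 lymphocyte markers to at most 1.42 TPM. BM line 2 stood apart from the other BM lines. Its 9 erythroid markers summed to 374 TPM against at most 16.3 TPM elsewhere, and over 45 genes at 20 TPM or more in YS line 2 that were below 0.5 TPM in its 2 sister BM lines it held a median of 14.1% of the YS line 2 level. Counts of members without BM line 2 are therefore given below. Endothelial markers ran from 22.1 to 93.95 TPM, hepatocyte markers from 1.03 to 20.6 TPM and neutrophil markers from 0.06 to 25.6 TPM, and their part in the results was not tested.

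The maintenance genes *Dnmt1* and *Uhrf1* were the most abundant members in every line. DNMT1, the maintenance methyltransferase, was encoded at 278.78, 194.97 and 484.50 TPM among YS lines 1 to 3, at 177.30, 109.53 and 128.43 TPM among FL lines 1 to 3, and at 118.46, 131.32 and 125.43 TPM among BM lines 1 to 3. All other lines were below the lowest YS line, YS line 3 was far above the others, and FL and BM lines overlapped. In such bulk libraries, more cells with a transcript and more transcript per cell cannot be told apart. The group means (± SD, n = 3 each) were 319 ± 149 TPM for YS, 138 ± 35.0 TPM for FL and 125 ± 6.44 TPM for BM lines. *Uhrf1*, which encodes the partner that recognises hemimethylated DNA, was at 202.82, 109.98 and 108.95 TPM among YS lines, at 128.81, 102.41 and 93.17 TPM among FL lines and at 97.26, 99.06 and 102.32 TPM among BM lines. YS line 1 held the highest value, the remaining YS lines were only slightly above the BM lines, and YS and FL lines overlapped.

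The de novo methyltransferases were lower. *Dnmt3a* was at 52.01, 53.90 and 51.76 TPM among YS lines, at 52.16, 31.86 and 51.67 TPM among FL lines and at 32.15, 32.88 and 31.13 TPM among BM lines. The YS lines lay close together above the BM lines, and FL lines were split, with lines 1 and 3 at the level of YS lines and line 2 at that of BM lines. *Dnmt3b*, the paralog known from early embryos, was at 7.72, 1.12 and 0.74 TPM among YS lines, at 0.86, 0.20 and 0.11 TPM among FL lines and at 0.41, 0.18 and 0.82 TPM among BM lines. Only YS line 1 rose clearly above 1 TPM, and the gene did not meet the filter for testing (at least 1 TPM in at least 3 libraries).

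Of the TET dioxygenases, 2 were expressed. *Tet3* was at 55.74, 37.79 and 37.59 TPM among YS lines, at 40.33, 45.85 and 33.42 TPM among FL lines and at 26.50, 25.60 and 26.08 TPM among BM lines, so that every YS and FL line was above every BM line. *Tet2* was at 27.20, 21.41 and 9.43 TPM among YS lines, at 15.21, 14.49 and 14.79 TPM among FL lines and at 14.47, 14.95 and 17.66 TPM among BM lines. YS lines held both its highest and its lowest values, and the groups overlapped. *Tet1* was listed at 0 in 6 libraries and at no more than 0.04 TPM in YS lines 1 and 2 and FL line 3, and was not tested.

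For PRC2, *Suz12* was at 94.37, 96.07 and 100.92 TPM among YS lines, at 82.93, 92.78 and 64.60 TPM among FL lines and at 62.34, 68.15 and 58.84 TPM among BM lines. The YS lines were above all others, while FL line 3 lay within the range of the BM lines. *Ezh2*, the catalytic subunit of dividing cells, was at 101.62, 66.41 and 77.61 TPM among YS lines, at 79.66, 51.09 and 59.87 TPM among FL lines and at 65.99, 63.14 and 56.83 TPM among BM lines. The lowest YS line, at 66.41 TPM, was just above the highest BM line, at 65.99 TPM, and the FL lines reached both above and below the BM lines. *Ezh1*, the paralog known from resting cells, was at 19.15, 29.22 and 27.15 TPM among YS lines, at 24.22, 39.28 and 18.91 TPM among FL lines and at 27.87, 24.33 and 28.18 TPM among BM lines, and all groups overlapped. The line with the lowest *Ezh2*, FL line 2, had the highest *Ezh1*.

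**Figure D1:**
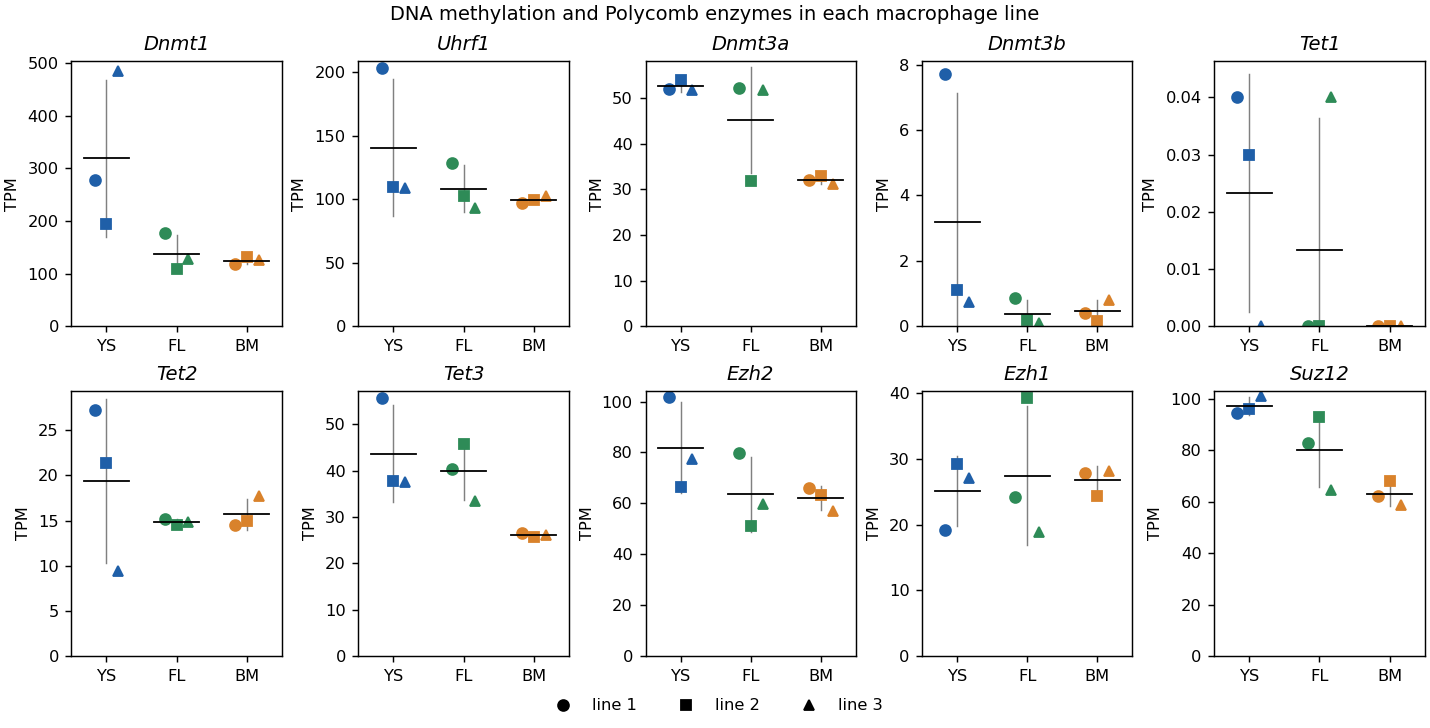
TPM of each of the 10 genes (vertical axis, linear, a scale of its own in each panel) in YS, FL and BM lines. Points are lines 1 (circle), 2 (square) and 3 (triangle), the horizontal bar is the group mean and the vertical line ± 1 SD. *Dnmt1* was 194.97 TPM or more in the YS lines and 177.30 TPM or less in all other lines, and the 3 BM lines lay close together in most panels.

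The question asked of these lines is how macrophages of different origin differ once they have been brought to a common, self-renewing culture. YS lines carried more *Dnmt1*, *Dnmt3a*, *Tet3* and *Suz12* mRNA than BM lines. Differences were tested on log2(TPM + 1) with limma over the 11753 genes that met the filter, and a gene passed at an adjusted p under 0.1 and was called where the difference was also more than 2-fold, the thresholds of the study. *Dnmt1* was 1.25 higher on the log2 scale in YS than in BM lines (SE 0.30, limma adjusted p = 0.019) and was called. *Tet3* was 0.70 higher (SE 0.18, limma adjusted p = 0.021), *Dnmt3a* 0.70 higher (SE 0.18, limma adjusted p = 0.022) and *Suz12* 0.62 higher (SE 0.14, limma adjusted p = 0.014). Each of these 4 genes was higher in 3 of 3 YS lines than in any BM line, and so were *Uhrf1* and *Ezh2*, which did not pass. The share of all tested genes with such a separation was not counted, so it cannot be read as particular to the members.

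*Uhrf1* (0.43, SE 0.23, limma adjusted p = 0.199) and *Ezh2* (0.38, SE 0.20, limma adjusted p = 0.180) had higher means in YS than in BM lines and did not pass. *Tet2* (0.17, SE 0.32) and *Ezh1* (-0.11, SE 0.26) had differences smaller than their standard errors. In all, 4 of the 8 tested members passed as higher in YS lines, where 23.5% of all tested genes did, and 0 as lower, where 14.4% did. At an unadjusted limma p under 0.05 the counts were the same, 4 and 0. *Dnmt1* was the only member called, against 7.57% of genes called higher and 5.22% called lower. The median difference of the 8 members was 0.52 on the log2 scale, beside 0.11 over all tested genes. Without BM line 2 the counts were again 4 passed and 1 called. The call of *Dnmt1* as more than 2-fold rested on YS line 3, since the difference was 0.89 without it (limma adjusted p = 0.025) and 1 more member, *Tet2*, then passed (0.60, limma adjusted p = 0.025).

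Between FL and BM lines, *Tet3* was the member that passed. It was 0.58 higher on the log2 scale in FL lines (SE 0.18, limma adjusted p = 0.049), in 3 of 3 lines. *Dnmt3a* (0.45, SE 0.18, limma adjusted p = 0.114) and *Suz12* (0.33, SE 0.14, limma adjusted p = 0.135) did not pass, and the means of *Dnmt1* (0.12, SE 0.30), *Uhrf1* (0.11, SE 0.23), *Ezh2* (0.01, SE 0.20), *Ezh1* (-0.03, SE 0.26) and *Tet2* (-0.07, SE 0.32) differed by less than their standard errors. Thus 1 of 8 members passed as higher and 0 as lower, where 17.0% and 10.6% of all tested genes did. At an unadjusted limma p under 0.05 the counts were 3 and 0. No member was called, where 6.01% of genes were called higher and 4.30% lower. The median difference was 0.11, beside 0.09 over all tested genes. *Tet3* no longer passed without FL line 1 or 2 or any 1 BM line, with limma adjusted p between 0.117 and 0.138, and it was 0.124 without BM line 2. Without FL line 2, *Dnmt3a* passed (0.68, limma adjusted p = 0.007), and without FL line 3, *Suz12* did (0.47, limma adjusted p = 0.037).

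Between YS and FL lines, *Dnmt1* differed. It was 1.13 higher on the log2 scale in YS lines (SE 0.30, limma adjusted p = 0.068), in 3 of 3 lines, and was the only member that passed or was called. *Ezh2* (0.36), *Uhrf1* (0.33), *Suz12* (0.29), *Dnmt3a* (0.25), *Tet2* (0.24), *Tet3* (0.12) and *Ezh1* (-0.08) did not pass, with limma adjusted p between 0.224 for *Suz12* and 0.867 for *Ezh1*. The count was 1 of 8 passed as higher and 0 as lower, where 6.20% and 6.56% of all tested genes passed, and 1 called higher, where 1.95% of genes were called higher and 1.85% lower. At an unadjusted limma p under 0.05 the counts were 1 and 0. The median difference was 0.27, beside 0.02 over all tested genes. This call of *Dnmt1* was lost without YS line 1, FL line 2, FL line 3 or any 1 BM line (limma adjusted p between 0.101 and 0.192), and its difference was 0.78 without YS line 3, where *Dnmt1* and *Tet2* passed (0.67, limma adjusted p = 0.050 for *Tet2*). In TPM as deposited, *Dnmt1*, *Uhrf1*, *Dnmt3a*, *Tet3*, *Ezh2* and *Suz12* ordered the group means as YS, FL and BM from high to low. The only neighbours in this order that passed were YS and FL for *Dnmt1* and FL and BM for *Tet3*. For *Ezh2* the FL and BM means were nearly equal, at 63.54 and 61.99 TPM. How many of all tested genes follow this order was not counted, so it cannot be read as particular to the members. The 3 comparisons share their lines in pairs and are not independent of each other.

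**Figure D2:**
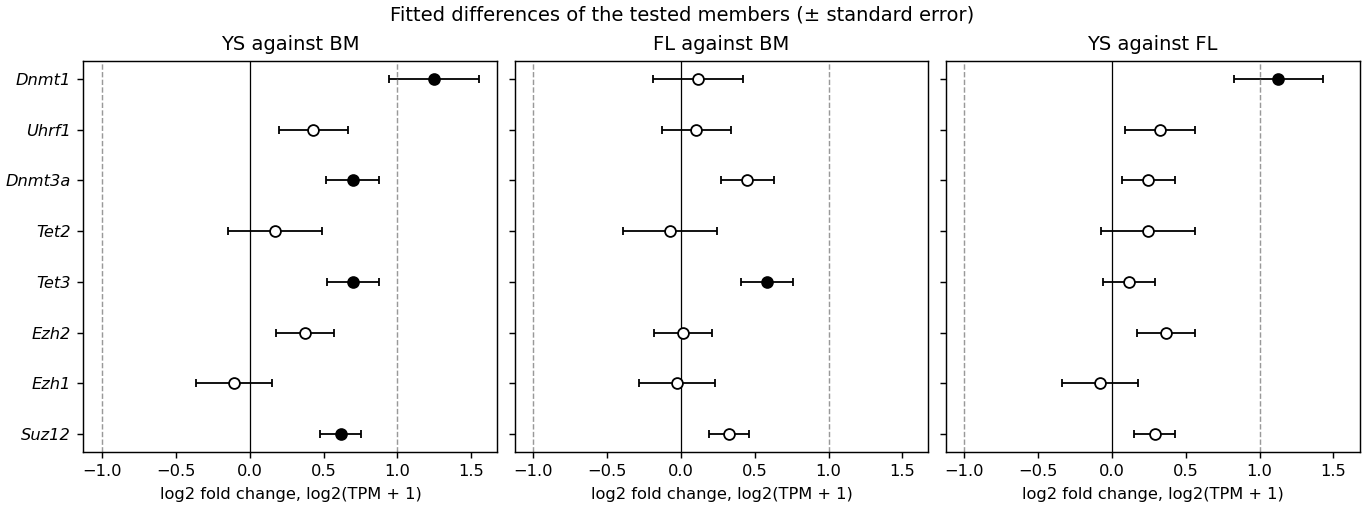
Log2 fold change of the 8 tested members on log2(TPM + 1) (horizontal axis) in the 3 comparisons, with bars of ± 1 standard error from limma. Filled points passed at an adjusted p under 0.1 and dashed lines mark a 2-fold difference. *Dnmt1* lay beyond 2-fold in YS against BM (1.25) and YS against FL (1.13), and the other filled points are *Dnmt3a*, *Tet3* and *Suz12* in YS against BM and *Tet3* in FL against BM.

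The make-up of each family was set out as shares of its summed TPM, which do not depend on how a library was scaled. *Dnmt1* was between 71.3% and 90.2% of the DNMT mRNA of a line, *Dnmt3a* between 9.64% and 28.7%, and *Dnmt3b* at most 2.28%, in YS line 1. YS line 3 had the highest *Dnmt1* share and FL line 3 the lowest. The ratio of *Dnmt1* to *Dnmt3a* TPM was 5.36, 3.62 and 9.36 in YS lines, 3.40, 3.44 and 2.49 in FL lines and 3.68, 3.99 and 4.03 in BM lines. FL lines were below all BM and all YS lines, while YS and BM lines overlapped. As log2 ratios of TPM + 1, FL lines differed from BM lines by -0.33 and YS lines from FL lines by 0.88 (exact two-sided permutation p = 0.1 each, the smallest that 3 lines against 3 allow), and YS against BM lines gave 0.55 (exact permutation p = 0.4).

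*Tet3* made up 59.6% to 64.7% of TET mRNA in BM lines, 69.3% to 76.0% in FL lines and 63.8% to 79.9% in YS lines. The *Tet3* to *Tet2* TPM ratio was 1.83, 1.71 and 1.48 in BM lines, 2.65, 3.16 and 2.26 in FL lines and 2.05, 1.77 and 3.99 in YS lines. FL lines were above all BM lines (0.66 on the log2 scale, exact permutation p = 0.1), and YS lines overlapped both groups (exact permutation p = 0.2 against BM and 0.7 against FL). *Ezh2* exceeded *Ezh1* in all 9 lines, with 56.5% of EZH mRNA in FL line 2 and 84.1% in YS line 1. Its TPM ratio to *Ezh1* was 5.31, 2.27 and 2.86 in YS lines, 3.29, 1.301 and 3.17 in FL lines and 2.37, 2.60 and 2.02 in BM lines, with overlap between all groups (exact permutation p = 0.3 for YS against BM, 1 for FL against BM and 0.6 for YS against FL). With Benjamini-Hochberg adjustment over these 9 exact tests the lowest p was 0.3.

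**Figure D3:**
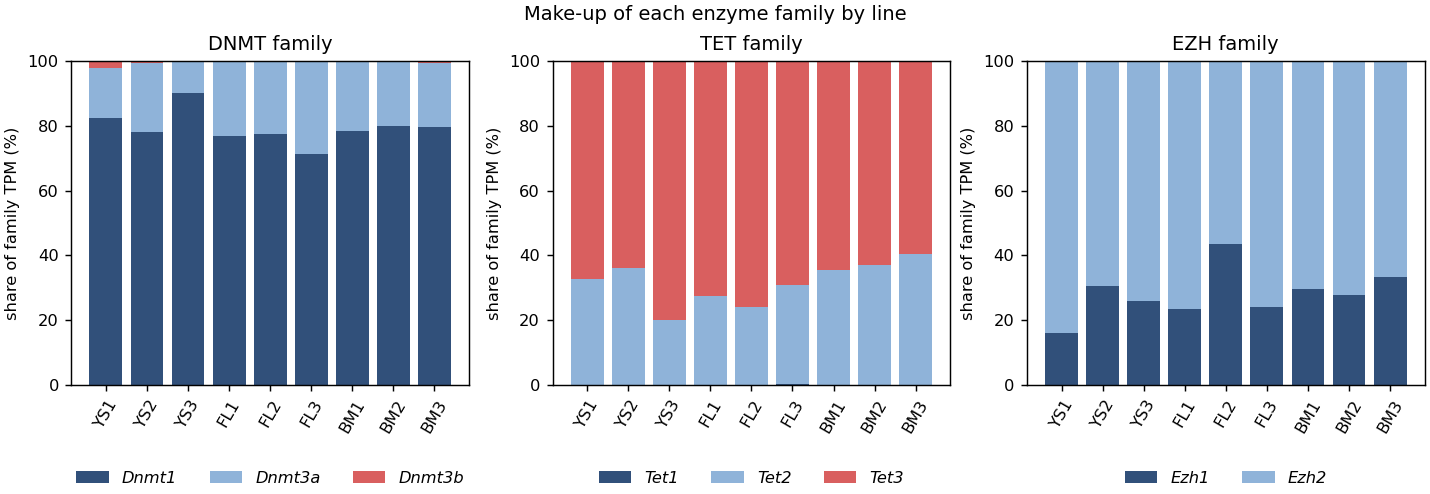
Share of each gene in the summed TPM of its family (vertical axis, %) for the DNMT, TET and EZH genes in the 9 lines (horizontal axis, group and line number). *Dnmt1*, *Tet3* and *Ezh2* were the largest part of their families in every line, and FL line 2 had the highest *Ezh1* share, 43.5%.

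The members were next set beside 41 genes of S phase, a list written without any member, since transcripts of dividing cells can move together with the share of cells in the cycle. *Pcna*, *Hells* and *Cdca7* were also left out of it and are counted below among the partners of DNA methylation. Of these, *Pcna* was lower in YS than in BM lines (-0.56 on the log2 scale, limma adjusted p = 0.005). *Hells* did not pass (-0.10, limma adjusted p = 0.677), and *Cdca7* was higher (1.04, limma adjusted p = 0.019). The summed level of the list was 3296 to 4056 TPM among YS lines, 2565 to 3115 TPM among FL lines and 2781 to 2854 TPM among BM lines. In YS against BM lines 26 of the 41 genes passed as higher and 1 as lower, in FL against BM lines 7 and 3, and in YS against FL lines 12 and 0 (23 and 0 at an unadjusted limma p under 0.05), and none was more than 2-fold different at that threshold. The medians of the list were 0.51, 0.01 and 0.42 on the log2 scale. Of all tested genes, 23.5% passed as higher and 14.4% as lower in YS against BM lines. The shares were 17.0% and 10.6% in FL against BM lines, and 6.20% and 6.56% in YS against FL lines. The summed S phase level of every YS line was above that of every other line.

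*Dnmt1* stood above the mean log2(TPM + 1) of the S phase genes of its own library by 1.95, 1.70 and 2.87 in YS lines, by 1.61, 1.19 and 1.41 in FL lines and by 1.28, 1.38 and 1.38 in BM lines. On this scale too all YS lines were above all other lines. For *Uhrf1* the distances were 1.49, 0.88 and 0.73 in YS lines, 1.15, 1.09 and 0.95 in FL lines and 1.00, 0.98 and 1.09 in BM lines. Here YS line 1 was highest and the other YS lines were lowest. *Ezh2* lay 0.50, 0.16 and 0.25 above the S phase mean in YS lines, 0.46, 0.10 and 0.32 in FL lines and 0.44, 0.34 and 0.25 in BM lines, with all groups mixed. With each library scaled to its S phase genes, a scaling chosen after the data had been seen, *Dnmt1* remained higher in YS than in BM lines (0.83, limma adjusted p = 0.044) and than in FL lines (0.77, limma adjusted p = 0.070), both under 2-fold. *Tet3* (0.28, limma adjusted p = 0.200), *Dnmt3a* (0.28, limma adjusted p = 0.232) and *Suz12* (0.20, limma adjusted p = 0.331) then no longer passed in YS against BM lines. *Ezh2* (-0.041) and *Tet2* (-0.25) changed sign in that comparison. *Tet3* still passed in FL against BM lines (0.52, limma adjusted p = 0.062). This scaling moved the median of all tested genes to -0.31 in YS against BM and to -0.33 in YS against FL lines, and to 0.03 in FL against BM lines. It subtracts the same value from all genes of a library, so every difference in a comparison moved by the same amount. The lost passes and sign changes therefore do not sort the members by their link to the cell cycle, which was not tested.

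**Figure D4:**
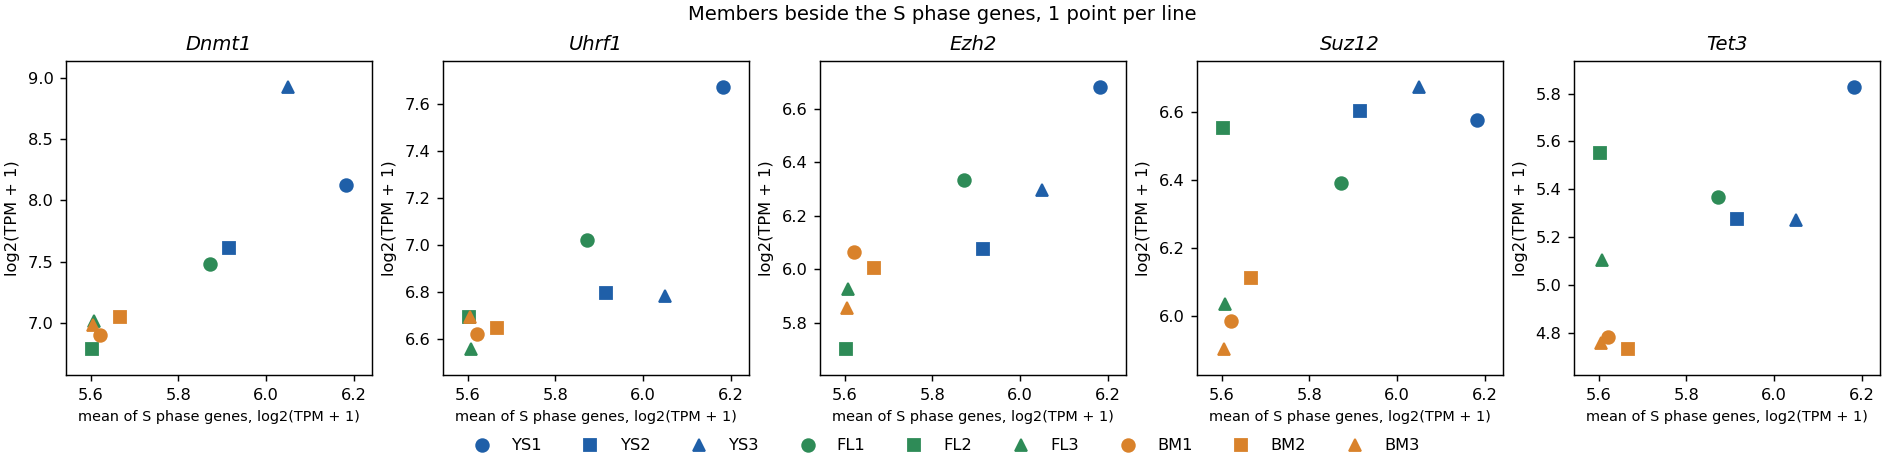
Level of *Dnmt1*, *Uhrf1*, *Ezh2*, *Suz12* and *Tet3* (vertical axis, log2(TPM + 1)) against the mean log2(TPM + 1) of the 41 S phase genes (horizontal axis), 1 point per line, coloured by group and shaped by line number. The 3 YS lines had the highest S phase means and the highest *Dnmt1*, and the axes do not start at 0. *Tet3* and *Suz12* of FL line 2 lay high at a low S phase mean.

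For the 4 tested members that varied most over the lines, the genes of most similar profile over the 9 libraries were listed by Pearson r on log2(TPM + 1), as a description, since the libraries share group structure and no test was made. *Dnmt1* was most like *Dclre1b* (r = 0.990), *Zcchc8* (r = 0.985) and *Ampd2* (r = 0.985). *Tet2* was most like *Lrrc40* (r = 0.977), *Spcs3* (r = 0.970) and *Rpf1* (r = 0.964). *Tet3* was most like *Ube3a* (r = 0.988), *Acaca* (r = 0.979) and *Klrg2* (r = 0.974), and *Dnmt3a* most like *Scfd1* (r = 0.958), *Nmnat1* (r = 0.957) and *Phf13* (r = 0.956). None of these 12 genes was a member. Among the members themselves the closest pair was *Uhrf1* and *Ezh2* (r = 0.852), followed by *Tet3* and *Suz12* (r = 0.812), and *Ezh1* ran most against *Ezh2* (r = -0.60).

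The other genes of these pathways were counted from lists, beginning with the partners of DNA methylation. The shares of all tested genes to set beside each list were 23.5% higher and 14.4% lower in YS against BM lines. They were 17.0% and 10.6% in FL against BM lines, and 6.20% and 6.56% in YS against FL lines. Of 10 tested partners, 4 passed as higher and 3 as lower in YS against BM lines, 1 and 3 in FL against BM lines, and 2 and 0 in YS against FL lines (4 and 1 at an unadjusted limma p under 0.05). *Cdca7*, which encodes a factor that works with the remodeller HELLS, was at 51.79, 33.55 and 26.49 TPM among YS lines and at 15.94, 18.47 and 16.53 TPM among BM lines (1.04 on the log2 scale, SE 0.25, limma adjusted p = 0.019). *Uhrf2*, the paralog of *Uhrf1*, was lowest in FL lines, at 24.58, 24.55 and 22.22 TPM against 61.90, 53.22 and 54.27 TPM among BM lines (-1.21, SE 0.13, limma adjusted p = 0.001). *Uhrf2* thus had its highest levels in the BM lines, in which *Uhrf1* was not higher than in the other groups. *Pcna*, the replication clamp that brings DNMT1 to the fork, ran from 704.85 to 1092 TPM and was lower in YS than in BM lines (-0.56, limma adjusted p = 0.005), whereas *Dnmt1* was higher.

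Of the 10 methyl-CpG readers, 2 passed as higher and 3 as lower in YS against BM lines, 2 and 2 in FL against BM lines, and 1 and 1 in YS against FL lines. *Zbtb4*, a zinc finger reader, was at 45.44, 73.11 and 59.29 TPM among FL lines, at 26.96, 18.92 and 17.99 TPM among BM lines and at 20.82, 34.94 and 22.43 TPM among YS lines. Every FL line was above every other line (1.43 on the log2 scale against BM, limma adjusted p = 0.006, and -1.17 for YS against FL, limma adjusted p = 0.045). *Mbd2* was the most abundant reader, between 151 and 293 TPM. Among 10 tested TET partners and base repair genes, 1 passed as higher and 3 as lower in YS against BM lines, 0 and 2 in FL against BM lines (0 and 2 unadjusted), and 0 and 0 in YS against FL lines (2 and 1 unadjusted).

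The stress-inducible *Gadd45b*, a gene linked to demethylation through repair, was lower in both groups than in BM lines. It was at 20.69, 21.62 and 20.79 TPM among YS lines, at 17.86, 7.02 and 15.52 TPM among FL lines and at 46.85, 51.10 and 59.52 TPM among BM lines (-1.27, limma adjusted p = 0.014 for YS and -1.97, limma adjusted p = 0.003 for FL). *Gadd45a* ran from 0.93 TPM in YS line 1 to 13.58 TPM in YS line 2, below all BM lines at 20.13 TPM or more (-2.04, SE 0.61, limma adjusted p = 0.039). *Cxxc5*, which encodes a CpG-binding protein known to act with TET2, was higher in YS lines at 1.33 to 3.23 TPM than in BM lines at 0.31 to 0.66 TPM (1.03, SE 0.32, limma adjusted p = 0.045). Only the YS lines and FL line 1 held it at 1 TPM or more. It thus met the filter through the group in which it was higher, and its pass describes low values only.

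In PRC2 beyond the members, the genes called were those of accessory subunits. Of 11 tested subunits, 4 passed as higher and 2 as lower in YS against BM lines, 3 and 1 in FL against BM lines, and 1 and 0 in YS against FL lines (2 and 2 unadjusted). *Phf19*, the Polycomb-like subunit that guides PRC2 to chromatin, was at 29.74, 25.45 and 29.36 TPM among YS lines, at 24.20, 12.43 and 11.90 TPM among FL lines and at 10.02, 13.07 and 7.85 TPM among BM lines (1.39 for YS against BM, SE 0.27, limma adjusted p = 0.009). The gene for EPOP, a subunit of the same PRC2 form that is listed by its older symbol *E130012A19Rik*, was at 6.48, 15.67 and 13.12 TPM among YS lines, at 19.22, 15.93 and 14.76 TPM among FL lines and at 2.12, 3.38 and 2.96 TPM among BM lines. It was 1.67 higher in YS lines (limma adjusted p = 0.006) and 2.21 higher in FL lines (limma adjusted p = 0.002).

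*Aebp2*, a subunit of the alternative PRC2 form, went the other way, at 67.98, 51.27 and 57.77 TPM among BM lines, 26.58, 23.12 and 19.42 TPM among FL lines and 41.44, 27.22 and 25.02 TPM among YS lines. It was called lower in FL lines (-1.32, SE 0.21, limma adjusted p = 0.004) and passed as lower in YS lines (-0.92, limma adjusted p = 0.014), with no overlap of either group with the BM lines. Accessory subunits that were not called also went both ways. *Jarid2* was higher in FL than in BM lines (0.96, limma adjusted p = 0.012) and did not pass in YS lines (0.45, limma adjusted p = 0.124). *Phf1* was lower in YS than in BM lines (-0.64, limma adjusted p = 0.055). A shift between forms of PRC2 was not tested. Among the core subunits, *Eed* was at 59.5 to 95.1 TPM over all lines and was higher in YS than in BM lines (0.43, limma adjusted p = 0.043), as was *Rbbp4* (0.48, limma adjusted p = 0.015). *Rbbp7*, the most abundant of them at 154 to 270 TPM, did not pass (0.30, limma adjusted p = 0.290), and YS line 1 held its lowest level.

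PRC1, which ubiquitinates histone H2A, was counted over 24 tested genes. In YS against BM lines 5 passed as higher and 3 as lower, beside 23.5% and 14.4% of all tested genes. In FL against BM lines the counts were 5 and 2, beside 17.0% and 10.6%. In YS against FL lines they were 2 and 0 (3 and 2 unadjusted), beside 6.20% and 6.56%. *Kdm2b*, which anchors a variant complex to CpG islands, was at 56.30, 46.38 and 57.84 TPM among YS lines, 45.08, 36.99 and 34.84 TPM among FL lines and 25.53, 27.01 and 23.37 TPM among BM lines (1.05 for YS against BM, limma adjusted p = 0.002). *Rybp*, a shared subunit of variant complexes, was at 27.47, 27.86 and 42.28 TPM in YS and 12.81, 13.46 and 11.93 TPM among BM lines (1.26, limma adjusted p = 0.003). *Scmh1*, a Polycomb protein with methyl-lysine binding repeats, was higher than in BM lines by 1.63 in YS (limma adjusted p = 0.008) and by 1.19 in FL lines (limma adjusted p = 0.030). *Pcgf6*, the subunit that defines a complex known from silencing of germline genes, was lower in both, at 4.82 to 6.69 TPM in YS and 4.77 to 5.97 TPM among FL lines against 12.12 to 14.08 TPM among BM lines (-1.14 and -1.16, limma adjusted p = 0.003 and 0.002).

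Of the 15 tested enzymes that remove or oppose the Polycomb marks, 6 passed as higher and 1 as lower in YS against BM lines, 2 and 0 in FL against BM lines (3 and 0 unadjusted), and 0 and 0 in YS against FL lines (2 and 1 unadjusted). *Kdm6a*, the X-linked H3K27 demethylase that is known to escape X inactivation, was at 16.19, 24.69 and 20.73 TPM among FL lines, 12.88, 17.05 and 13.46 TPM among YS lines and 7.75, 9.87 and 7.23 TPM among BM lines (1.21 for FL against BM, SE 0.19, limma adjusted p = 0.004, and 0.74 for YS against BM, limma adjusted p = 0.024). *Xist* was at 303 and 176 TPM among FL lines 2 and 3 and at most 0.08 TPM in the other lines. FL lines 2 and 3 also had the highest *Kdm6a* of all lines. FL line 1, without *Xist*, was above every BM line in *Kdm6a*, and YS line 2 was above FL line 1. The sex of the cells is not given in the labels, and its part in the *Kdm6a* levels was not tested.

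**Figure D5:**
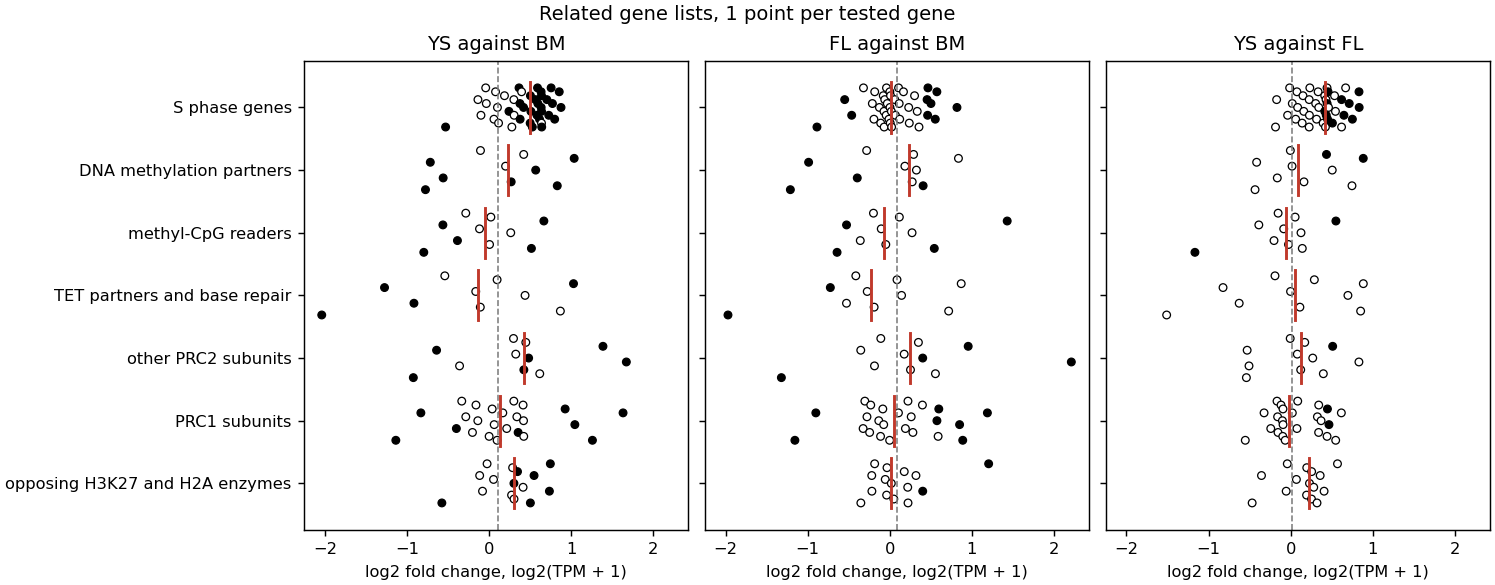
Log2 fold change on log2(TPM + 1) (horizontal axis) of each tested gene of 7 related lists in the 3 comparisons, 1 point per gene, filled where it passed at an adjusted p under 0.1. Red bars are list medians and dashed lines the median of all tested genes. The S phase genes lay mostly to the right in YS against BM (median 0.51) and YS against FL (median 0.42), and the Polycomb and methylation lists held genes on both sides.

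A readout of methylation was sought in 20 germline genes that are known to be kept silent by promoter methylation in somatic cells. Their summed level was 5.31 to 11.1 TPM per line, 8 of them were listed at 0 in all libraries, and only *Slc25a31*, *Brdt* and *Piwil2* reached 1 TPM in any. *Brdt* and *Piwil2* were above 1 TPM in every line. Summed, YS lines held 8.68 to 11.1 TPM, FL lines 8.23 to 10.7 TPM and BM lines 5.31 to 8.46 TPM. Of the 3 tested genes, 1 passed as higher in YS against BM lines, 1 in FL against BM lines and 0 in YS against FL lines. *Piwil2* was at 3.74 to 5.30 TPM among YS lines and at 1.59 to 4.20 TPM among BM lines, with overlap (0.65, limma adjusted p = 0.096). *Slc25a31*, a testis form of the mitochondrial ADP/ATP carrier, was at 2.11, 3.23 and 1.53 TPM among FL lines, at 0, 1.81 and 1.35 TPM among YS lines and at 0, 0.33 and 0 TPM among BM lines (1.55 for FL against BM, SE 0.41, limma adjusted p = 0.030). It met the filter for testing only through FL and YS lines, with every BM line under 1 TPM. Its pass is therefore not independent of the filter and is given as a description of low values. *Dazl*, *Sycp1* and *Mael*, among the best known of these genes, were listed at 0 throughout. The lowest *Dnmt1* level of any line was 109.53 TPM, and its part in the low germline levels was not tested. DNA methylation and H3K27 methylation themselves were not measured in these libraries, and protein levels were not analysed here.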

How the data were processed

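RNA-seq libraries of 3 YS, 3 FL and 3 BM lines, poly(A)-selected and strand-specific, were analysed. The authors deposited 1 table of TPM for 24411 gene symbols. The submitters' processing notes name Trim Galore 0.6.6, STAR 2.7.9a and RSEM 1.3.3, and the genome build and annotation are not given in the sources used here. TPM carries no read depth, so no counting interval is given, and RSEM divides reads shared by similar transcripts by estimate.

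From the TPM, log2(TPM + 1) was computed, a scale that understates fold changes of low genes. Genes that reached 1 TPM in 3 or more of the 9 libraries, 11753 in number, were tested with limma 3.58.1 in R 4.3.3 (1 model over all 9 libraries, intensity trend, Benjamini-Hochberg adjustment within a comparison, adjusted p under 0.1, with and without more than 2-fold). The procedure was tested on simulated data. Ratios of members were compared by exact two-sided permutation tests. Lines were grouped and numbered from the sample titles. Same-numbered lines did not deviate together across groups (r of deviations -0.12 to 0.09), so a block for the number entered only an alternative.

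The members and the related lists, written by hand, were chosen with earlier results of these data known. The rule for named genes was every member, each called gene of a related list, the 3 genes of highest mean TPM of a list as examples of level, and the 3 genes of closest profile to each of the 4 most variable members. Genes named outside it, chosen after their values were seen, were *Csf1r*, *Fcgr1*, *Lyz2*, *Cd68*, *Hells*, *Jarid2*, *Phf1*, *Xist*, *Dazl*, *Sycp1* and *Mael*. For 5 listed genes the table held an older symbol. The ATAC-seq and other assays of the study were not analysed here.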

Additional observations from a re-analysis of the deposited data

How the results depend on the processing

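The 3 comparisons were recomputed under 19 alternatives each for the limma tests (pseudocount 0.1 or 4, no filter or 5 TPM, quantile or median-of-ratios scaling, no intensity trend, only the libraries of the compared groups, the replicate block, each line left out, and S phase scaling, which was chosen after the data had been seen). Higher *Dnmt1* in YS than in BM lines passed under all 19 (0.83 to 1.55, limma adjusted p 0.009 to 0.069), and higher *Dnmt3a*, *Tet3* and *Suz12* in all but S phase scaling. Precision is limited by 3 lines per group, and the unknown depth gives no counting error for low genes such as *Dnmt3b* and *Tet1*. The cause of each change below was not tested.

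With no filter, and with only the libraries of the 2 groups, the members passing and called in YS against FL were 0 and 0, with *Dnmt1* at a limma adjusted p of 0.102 and 0.201. S phase scaling moved all differences of a comparison by the same amount. Under it 1 member passed and 0 were called in YS against BM and 0 were called in YS against FL. These log2 differences changed sign: *Tet2* -0.25 and *Ezh2* -0.041 in YS against BM, *Ezh2* -0.048 in FL against BM, and *Dnmt3a* -0.11, *Uhrf1* -0.031, *Tet2* -0.11, *Tet3* -0.24 and *Suz12* -0.066 in YS against FL. *Ezh2* in FL against BM was -0.082 under quantile and -0.080 under median-of-ratios scaling. Quantile scaling moved the median of all tested genes in YS against BM from 0.11 to -0.01 and median-of-ratios scaling to 0.002. With the replicate block, *Ezh2* passed in YS against BM (0.38, limma adjusted p = 0.086), and the block changed no other call of a member.

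With each line left out in turn, the members called in YS against BM ran from 0 to 1, those passing in FL against BM from 0 to 2, those passing in YS against FL from 0 to 2 and those called in YS against FL from 0 to 1. Log2 differences that changed sign ranged in FL against BM from -0.075 to 0.27 for *Dnmt1*, -0.027 to 0.20 for *Uhrf1*, -0.12 to 0.011 for *Tet2*, -0.31 to 0.20 for *Ezh1* and -0.16 to 0.16 for *Ezh2*. In YS against BM they ranged from -0.12 to 0.60 for *Tet2* and -0.22 to 0.073 for *Ezh1*, and in YS against FL from -0.050 to 0.67 for *Tet2*, -0.068 to 0.22 for *Tet3* and -0.31 to 0.20 for *Ezh1*. The *Ezh2* to *Ezh1* log2 ratio in FL against BM ranged from -0.19 to 0.46 and the *Tet3* to *Tet2* ratio in YS against FL from -0.46 to 0.091. None of these differences had passed.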
